A study of Mus musculus with 161 samples.

Results

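Rab proteins are small GTPases that mark the membranes of the cell and direct the vesicles that move between them. The genes described here are those of the bulk RNA-seq matrix whose symbol is Rab followed by a digit, and this rule took 39 of the 8307 genes in the matrix. Of these, 34 encode Rab GTPases, and 5 encode proteins named after the Rab they act on (Rab3gap1, Rab3gap2, Rab3il1, Rab11fip1 and Rab11fip5). The cells were murine bone marrow-derived macrophages (BMDMs), which are macrophages grown in the dish from marrow precursors. They came from wild-type C57BL/6J mice of 6 to 10 weeks and had 7 days of culture with macrophage colony-stimulating factor (MCSF) at 20 ng/mL, which was part of the base medium of every group. From then on cells were kept in base medium (M0), given 100 ng/mL lipopolysaccharide (LPS) with 25 ng/mL interferon-γ (IFN-γ) to reach the M1 state, or given IL-4 (interleukin-4) at 25 ng/mL, which leads to the M2 state. For the second stage, cells primed for 24 h as M1 or M2 were washed and kept in the same cytokine, moved to base medium (M1→M0, M2→M0) or moved to the opposite cytokine (M1→M2, M2→M1). Times are hours since the first cytokine, so that 96 h M1→M0 means 24 h of LPS + IFN-γ and then 72 h without it.

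A Rab switches between a GTP-bound form, which sits on a membrane and recruits effectors such as tethers and motor adaptors, and a GDP-bound form, which the carrier GDI takes back into the cytosol. Guanine nucleotide exchange factors (GEFs) load the GTP and GTPase-activating proteins (GAPs) have it hydrolysed. Macrophages use these steps to take up particles, mature phagosomes into lysosomes, recycle surface receptors and secrete cytokines.

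Bulk RNA was measured in 145 libraries of 48 conditions. Most conditions had 3 libraries, 48 h M0 had 2, and 96 h M0 and 28 h M2→M1 had 4. Chromatin accessibility was measured by ATAC-seq in 9 libraries (0 h M0, 24 h M1 and 96 h M1→M0, n = 3 each), and single cells were sequenced in 7 libraries, 1 per condition. RNA levels are FPKM, fragments per kilobase of transcript normalised for sequencing depth by the authors, so levels can be compared between genes. Over the 8307 genes they summed to between 354027 and 710082 per library, so the libraries do not share 1 total. The read depth behind them is not known. A difference is given as the change in log2(FPKM + 1) ± its standard error, with the limma adjusted p over all 8307 genes, and was called when that p was below 0.05. The added 1 makes folds of low genes too small.

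Libraries carrying the replicate number 1 stood apart from the others. In them Rab4a was the lowest value of its condition in 46 of 48 conditions, Rab5c in 44, and Rab3il1, Rab11fip5 and Rab34 in 43 each. Rab11fip1 was the highest value in 46 of 48. Replicate 1 of 1 h M1 also held far more of the early-response members than its partners, as the Rab20 and Rab11fip1 values show. What sets these libraries apart was not tested, and where a call given with its values was lost without them, that is stated beside it.

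The label of the cells was compared with marker genes. Of 10 macrophage markers 9 were measured, and their summed level at 0 h M0 was 9870 to 10900 FPKM. It was 6000 to 7540 FPKM in 24 h M1 and 4830 to 5420 FPKM in 24 h M2. The 10 markers of neutrophils and their precursors summed to 1060 to 2800 FPKM at 0 h M0, 66.6 to 419 FPKM at 24 h M0, 28 to 59.1 FPKM at 24 h M1 and 117 to 388 FPKM at 24 h M2, and 8 of them were called lower in 24 h M1 than in 24 h M0. The single B-cell marker measured held 65.1 to 90.9 FPKM at 24 h M0 and 0.466 to 1.16 FPKM at 24 h M1, the 3 megakaryocyte markers 634 to 873 and 161 to 231 FPKM, and the 2 fibroblast markers 1.73 to 34.3 and 0.83 to 25.6 FPKM. The dendritic cell marker held 0.389 to 1.18 FPKM at 24 h M0 and 1.05 to 2.58 FPKM at 24 h M1, and no T and NK cell, mast cell or erythroid marker of the lists was among the genes analysed. The part of these cells in the Rab values was not tested, and in bulk RNA fewer cells of a type cannot be told apart from less RNA per cell. Some members also share exons with another gene, which affects how far their FPKM is their own. Rab43 shares 75.4% of its exon bases with Gm45140 on the same strand and Rab4b 65.0% with Gm21983, whereas Rab24 shares 62.4% with Prelid1 and Rab20 25.6% with E230013L22Rik on the opposite strand, which an unstranded library cannot separate.

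Stretches of DNA inside 6 of these genes are shown because they were called at 24 h M1 and lie in members whose RNA changed in M1. Each is the middle 200 bases of an ATAC-seq site, on the plus strand of mouse build GRCm38.p6 (mm10). None of the 6 windows overlapped an exon, so all lie in introns. Capitals mark letters that match 1 of the motifs searched on both strands (AP-1, TGANTCA; the STAT6 spacing, TTC and GAA with any 4 bases between; kappaB, by name alone); the GAS motif TTCNNNGAA and the ISRE core, GAAA and GAAA with any 2 bases between, were searched too and were not found in these windows. The sites were picked after their values had been seen. At Rab5c and Rab31 the site shown had the second largest gain or loss inside the gene, and at the other 4 genes the largest. The first 4 gained accessibility in 24 h M1 and the last 2 lost it.
Rab22a, chr2:173680231-173680430: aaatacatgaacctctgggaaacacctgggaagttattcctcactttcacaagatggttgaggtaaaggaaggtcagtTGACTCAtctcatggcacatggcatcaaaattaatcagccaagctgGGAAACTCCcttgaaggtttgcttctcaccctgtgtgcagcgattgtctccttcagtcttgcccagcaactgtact
Rab5c, chr11:100737247-100737446: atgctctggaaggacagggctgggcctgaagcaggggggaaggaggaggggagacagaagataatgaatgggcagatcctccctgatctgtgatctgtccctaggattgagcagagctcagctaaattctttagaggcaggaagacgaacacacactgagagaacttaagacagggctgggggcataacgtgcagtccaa
Rab32, chr10:10550250-10550449: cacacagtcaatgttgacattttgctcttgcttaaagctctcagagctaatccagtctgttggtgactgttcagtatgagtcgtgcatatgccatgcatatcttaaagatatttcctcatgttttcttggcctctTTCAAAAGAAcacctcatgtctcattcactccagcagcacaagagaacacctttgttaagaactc
Rab20, chr8:11465366-11465565: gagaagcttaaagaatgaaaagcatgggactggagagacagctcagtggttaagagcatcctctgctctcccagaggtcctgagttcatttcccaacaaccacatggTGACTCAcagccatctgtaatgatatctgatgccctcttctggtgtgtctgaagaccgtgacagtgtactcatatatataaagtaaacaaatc
Rab3il1, chr19:10022037-10022236: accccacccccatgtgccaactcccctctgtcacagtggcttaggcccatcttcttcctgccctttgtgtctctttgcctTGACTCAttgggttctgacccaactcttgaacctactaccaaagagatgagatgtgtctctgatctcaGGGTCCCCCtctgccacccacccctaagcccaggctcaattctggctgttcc
Rab31, chr17:65768534-65768733: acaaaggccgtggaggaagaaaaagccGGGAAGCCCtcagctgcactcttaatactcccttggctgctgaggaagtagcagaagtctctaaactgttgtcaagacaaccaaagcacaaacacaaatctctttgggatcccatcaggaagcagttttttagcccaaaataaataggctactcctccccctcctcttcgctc

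In unstimulated cells the members covered a wide range of levels. At 0 h M0 the highest was Rab7, which takes late endosomes to lysosomes, with 314, 281 and 340.4 FPKM. It was followed by Rab11a of recycling endosomes with 169, 171 and 209 FPKM and Rab5c of early endosomes with 134, 167 and 188 FPKM. Rab11a and Rab5c overlapped in their libraries. At the other end stood Rab19 with 2.01, 3.00 and 3.90 FPKM and Rab11fip1 with 1.85, 1.52 and 1.59 FPKM, the lowest of the 39. No member was listed at 0 in any library. Between its lowest and its highest condition mean, Rab3il1 ranged 38.2-fold, Rab11fip1 32.5-fold, Rab4a 28.2-fold, Rab43 27.5-fold, Rab20 15.4-fold and Rab32 12.0-fold, whereas Rab11b, the close relative of Rab11a, ranged 1.48-fold.

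Most of the members changed within hours of LPS + IFN-γ, and more of them rose than fell. No bulk M0 library was taken between 0 h and 24 h. The bulk values at these times thus do not separate LPS + IFN-γ from hours in culture. At 4 h M1 against 0 h M0, 20 members rose and 8 fell, where 62.9% of all genes tested were called (35.3% higher and 27.6% lower). With library medians centred, the split at 4 h was 15 higher and 9 lower. The FPKM sum of all genes was also higher, with 414377 to 453416 at 0 h M0 and 614726 to 649176 at 4 h M1. That of the members was 1750 to 1900 and 2510 to 2760. Centring takes out the shift of the median gene, not that of the sum. The part of the higher sum in the member rises was not tested. The median change of the 39 members was 0.26 against 0.09 over all genes at 4 h, and 0.49 against 0.11 at 6 h, when 23 rose and 6 fell (67.3% of all genes called). At 1 h a single member, Rab20, was called (4.85% of all genes), and at 2 h 12 rose and 5 fell (42.6%). The share of members called was near the share of all genes called at these times, so these counts alone do not set the Rab genes apart. Of the 39 members, 14 had their highest M1 mean at 6 h, 6 each at 12 h and 24 h, and 4 each at 1 h and 2 h.

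**Figure D1:**
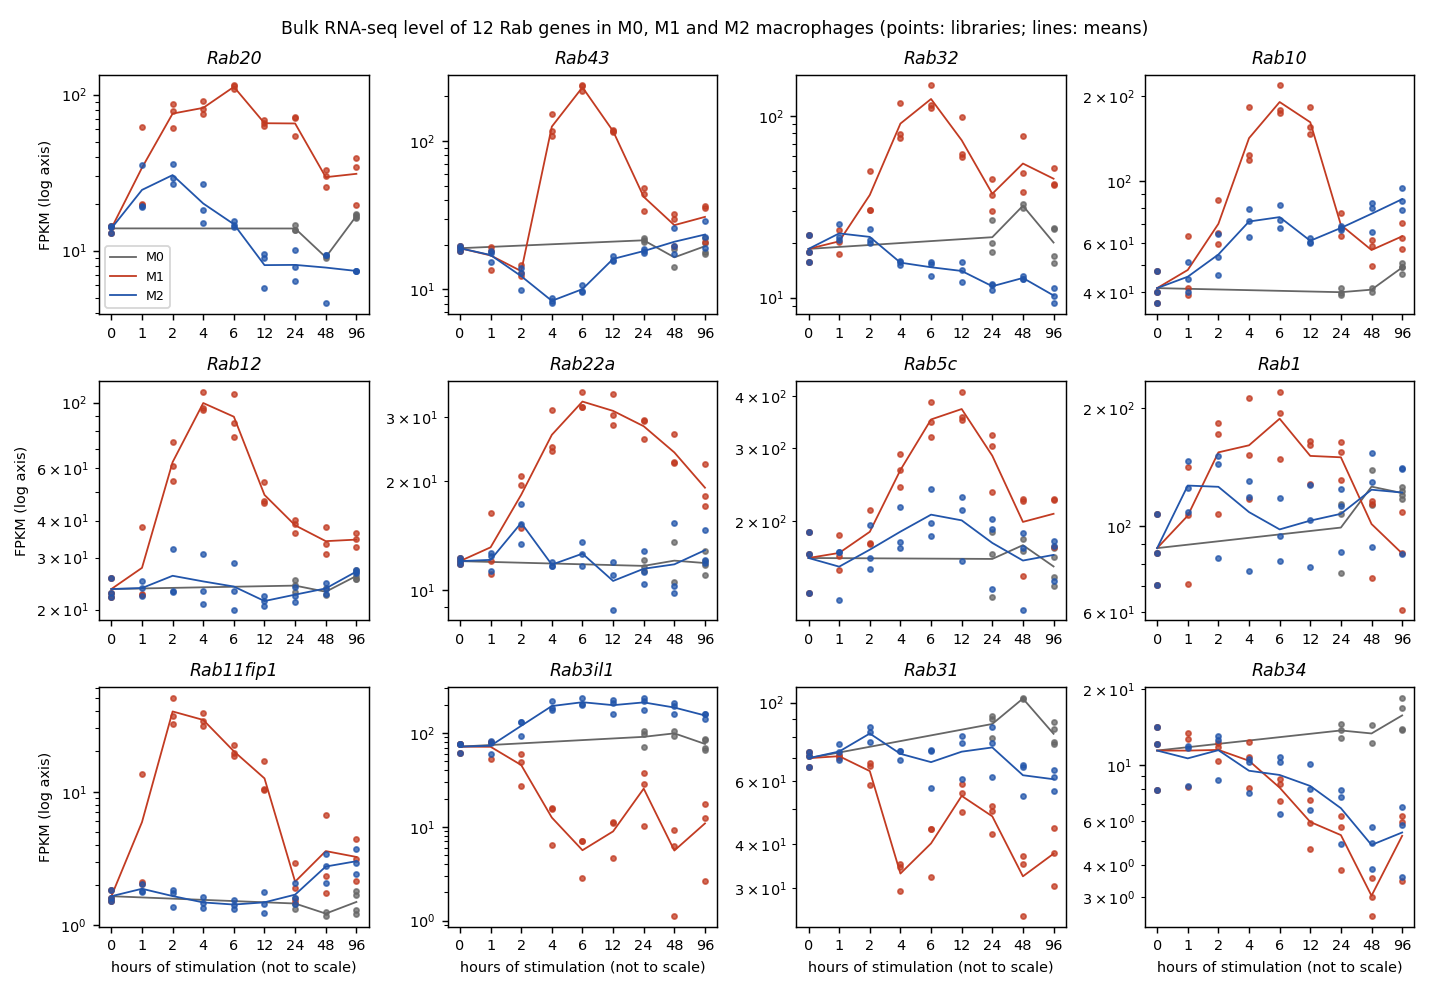
RNA level of 12 members in M0, M1 and M2 cells from 0 to 96 h, in FPKM on a log axis; points are libraries and lines join condition means. Rab20, Rab43, Rab32, Rab10 and Rab12 rose and came down again in M1, whereas Rab3il1, Rab31 and Rab34 fell.

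Among the Rabs of early and sorting endosomes, which receive what the cell has taken in, 6 of 9 rose at 4 h M1 and 2 fell, Rab31 and Rab4a. Rab20, which acts on phagosomes and macropinosomes, held 14.5, 14.2 and 13.0 FPKM at 0 h M0, 62.4, 19.9 and 19.6 FPKM at 1 h M1 and 113, 115 and 109 FPKM at 6 h M1. The 6 h libraries lay well above all 0 h libraries, while at 1 h only replicate 1 had reached 2 h levels. The rise was 1.02 ± 0.25 at 1 h (limma adjusted p = 0.0031) and 2.48 ± 0.25 at 4 h (limma adjusted p = 7.7e-16). Rab22a, another Rab of early endosomes, went from 12.3, 12.0 and 11.8 FPKM to 24.1, 24.8 and 31.4 FPKM at 4 h M1, a rise of 1.08 ± 0.15 (limma adjusted p = 9.7e-10). The fusion factor Rab5a went from 23.6, 21.4 and 22.1 FPKM to 58.6, 48.2 and 47.8 FPKM at 6 h M1 (1.16 ± 0.13, limma adjusted p = 4.3e-14). Its paralog Rab5c, the most abundant of the 3 Rab5 genes, reached 350.3, 357 and 410.4 FPKM at 12 h M1 from the 0 h levels above (1.20 ± 0.21, limma adjusted p = 3.4e-07). In both, no M1 library overlapped the 0 h libraries. Rab31, which works between the Golgi and endosomes, fell from 65.9, 70.7 and 72.6 FPKM to 29.4, 35.1 and 34.5 FPKM at 4 h M1 (-1.06 ± 0.15, limma adjusted p = 1.3e-09). Rab4a, of the fast recycling route, was at 3.06, 5.16 and 5.199 FPKM and then at 0.132, 0.348 and 0.72 FPKM at 6 h M1 (-1.96 ± 0.46, limma adjusted p = 9.3e-05), with replicate 1 the lowest at both times.

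Of the 9 Rabs of recycling and surface delivery, 5 rose at 4 h M1 and none fell. Rab10, which carries receptors such as TLR4 to the surface in macrophages, held 47.5, 40.2 and 36.5 FPKM at 0 h M0 and 219, 179 and 175 FPKM at 6 h M1. Its rise was 1.73 ± 0.12 at 4 h (limma adjusted p = 5.7e-24), and it was called higher than 0 h M0 in 37 of the 47 other conditions and lower in none. Rab12, which sends receptors from recycling endosomes to lysosomes, went from 25.6, 22.1 and 22.8 FPKM to 109, 94.3 and 95.8 FPKM at 4 h M1 (2.04 ± 0.13, limma adjusted p = 1.9e-28), with no overlap. Rab8b, of exocytic traffic, was earlier: it stood at 84.5, 84.5 and 79.0 FPKM at 0 h M0, at 219.7, 179 and 159.7 FPKM at 2 h M1 and at 131, 115 and 127 FPKM at 12 h M1. Its change at 4 h was 0.90 ± 0.15 (limma adjusted p = 6.5e-08).

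The Rabs of the ER and Golgi rose as well, 5 of 7 at 4 h M1 with none falling. Rab43, a Golgi Rab, showed the steepest course. Its libraries held 18.2, 19.0 and 19.6 FPKM at 0 h M0, 12.8, 14.6 and 12.4 FPKM at 2 h M1, 151, 108 and 116 FPKM at 4 h M1 and 235, 218 and 237 FPKM at 6 h M1. The 2 h libraries thus lay below all 0 h libraries, and the 6 h libraries more than 10-fold above them, a rise of 3.53 ± 0.18 (limma adjusted p = 3.8e-35). By 24 h M1 it was back at 33.7, 48.2 and 44.2 FPKM. Rab1, which moves vesicles from the ER to the Golgi, went from 85.1, 107 and 70.7 FPKM to 221, 195 and 149 FPKM at 6 h M1 (1.09 ± 0.25, limma adjusted p = 6.5e-05). Its libraries were spread widely, and at 4 h its call (0.85 ± 0.25, limma adjusted p = 0.0021) was lost without the libraries numbered 1 (adjusted p = 0.129), as was that of Rab18 (adjusted p = 0.112).

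Of the other groups, Rab32, which serves lysosome-related organelles, held 22.1, 17.8 and 15.7 FPKM at 0 h M0 and 147, 114 and 109.9 FPKM at 6 h M1, without overlap, and had risen by 2.21 ± 0.22 at 4 h (limma adjusted p = 8.5e-16). Rab9, which returns receptors from late endosomes to the Golgi, went from 18.0, 17.2 and 16.6 FPKM to 54.4, 41.5 and 41.1 FPKM at 6 h M1 (1.34 ± 0.13, limma adjusted p = 1.9e-16). Rab7l1, a Rab of the trans-Golgi and lysosomes, went from 16.7, 19.5 and 26.4 FPKM to 37.9, 33.5 and 41.4 FPKM at 6 h M1 (0.84 ± 0.20, limma adjusted p = 1e-04). Both were higher in each 6 h library than in any 0 h library. Other members fell early. Rab40c, a Rab with a SOCS box that recruits ubiquitin ligases, dropped from 8.49, 11.4 and 10.0 FPKM to 2.33, 1.97 and 2.15 FPKM at 2 h M1 (-1.79 ± 0.15, limma adjusted p = 2.3e-19) and stood at 11.2, 14.2 and 14.02 FPKM at 24 h M1. The secretory granule gene Rab3d was at 13.3, 12.1 and 13.1 FPKM and at 7.06, 8.27 and 10.1 FPKM at 4 h M1 (-0.56 ± 0.14, limma adjusted p = 2e-04).

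The 5 regulators did not move as 1 group, with 1 higher and 3 lower at 4 h M1. Rab11fip1, an effector that links Rab11 to recycling endosomes, rose from the lowest level of all members, 1.85, 1.52 and 1.59 FPKM, to 50.5, 32.3 and 36.7 FPKM at 2 h M1. That was a change of 3.92 ± 0.34 (limma adjusted p = 1.1e-18), and by 24 h M1 its libraries were at 2.93, 1.53 and 1.91 FPKM. Rab11fip5, another Rab11 effector, went the opposite way, from 33.8, 43.9 and 47.2 FPKM to 8.07, 12.7 and 11.2 FPKM at 4 h M1 (-1.88 ± 0.27, limma adjusted p = 2.7e-09). In single cells Rab11fip5 had 35.8 UMI counts-per-million at 0 h M0, 16.6 at 6 h M0 and 7.88 at 6 h M1. It was thus also lower at 6 h in unstimulated cells. Rab3il1, an exchange factor for Rab8 and Rab3A, fell from 61.8, 76.1 and 77.2 FPKM to 6.38, 16.0 and 15.3 FPKM at 4 h M1 and 2.84, 7.01 and 7.05 FPKM at 6 h M1. The 4 h change was -2.51 ± 0.54 (limma adjusted p = 2.8e-05). In Rab11fip5 and Rab3il1 the 4 h libraries did not overlap those of 0 h, and replicate 1 was the lowest. The third that fell was Rab3gap2, a subunit of the Rab3 GAP complex, from 12.8, 15.2 and 15.8 FPKM to 8.02, 7.66 and 7.87 FPKM (-0.81 ± 0.12, limma adjusted p = 1.6e-09), also without overlap.

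At 24 h the M1 and M2 cells could be set against M0 cells of the same age. At that time no member was called between 24 h M0 and 0 h M0 by limma (1.64% of all genes). In 24 h M1, 18 members rose and 4 fell, where 60.5% of all genes were called (35.4% higher and 25.2% lower). The median change was 0.28 over the members and 0.10 over all genes, and with library medians centred 13 members were higher and 6 lower. The FPKM sum of all genes was 390898 to 451265 in 24 h M0 and 520093 to 560718 in 24 h M1. That of the members was 1750 to 2040 and 2160 to 2400. By role, 6 of 9 early and sorting Rabs, 5 of 9 recycling Rabs and 4 of 7 Rabs of the ER and Golgi were higher. None of the 5 late endosome and lysosome Rabs was called higher and 1, Rab34, was lower. In 24 h M2 the count was 2 higher and 6 lower (33.6% of all genes called), with a member median of -0.04, and 5 calls were made without replicate 2 of 24 h M0. Both comparisons share the 24 h M0 libraries.

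**Figure D2:**
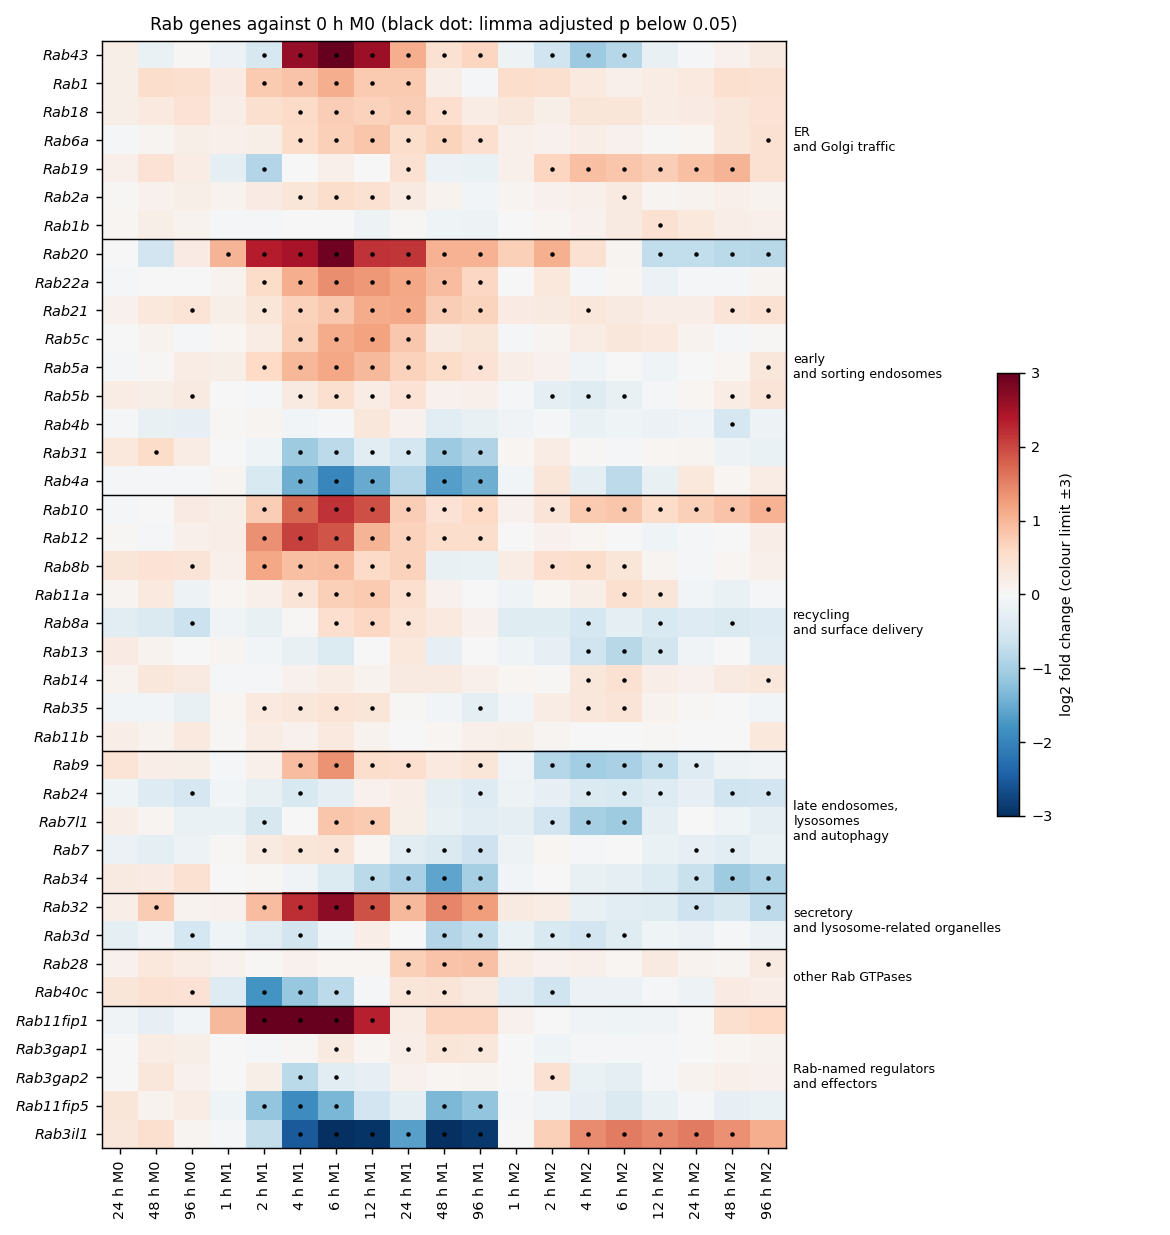
Change in log2(FPKM + 1) of the 39 members against 0 h M0 in M0, M1 and M2 conditions, grouped by role, with colours limited at -3 and 3 and a dot where limma called the change. The M1 columns hold most of the called rises, above all from 4 h to 24 h, and the M0 columns hold few calls.

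Rab20 was the most raised member at 24 h, with 13.6, 13.5 and 14.6 FPKM in M0 and 54.1, 71.4 and 70.6 FPKM in M1 (2.15 ± 0.25, limma adjusted p = 7.1e-13). In 24 h M2 it lay below M0, at 6.37, 7.82 and 10.1 FPKM (-0.73 ± 0.25, limma adjusted p = 0.016), so the 3 groups did not overlap, although the M2 call was lost without replicate 1 of 24 h M2 (adjusted p = 0.0987). Rab32 followed the same order, with 45.1, 30.1 and 36.6 FPKM in M1, 26.8, 19.9 and 17.8 FPKM in M0 and 11.8, 11.7 and 11.1 FPKM in M2. It rose by 0.77 ± 0.22 in M1 (limma adjusted p = 0.0018) and changed by -0.82 ± 0.22 in M2 (limma adjusted p = 0.002). Rab8b was called in the same directions, but both calls were lost without the libraries numbered 1 (adjusted p = 0.0831 in M1 and 0.109 in M2). Leaving out single libraries ended them as well: in M1 each of the 24 h M0 libraries (adjusted p = 0.0572, 0.0577 and 0.112) and replicates 1 and 3 of 24 h M1 (0.0961 and 0.131), and in M2 replicates 1 and 2 of 24 h M0 (0.0924 and 0.0836) and of 24 h M2 (0.0849 and 0.112).

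Rab10 was the single member raised in both states. Its libraries held 41.4, 39.8 and 39.02 FPKM in 24 h M0, 68.1, 63.6 and 77.0 FPKM in 24 h M1 and 66.5, 69.1 and 68.1 FPKM in 24 h M2. Each state lay above every M0 library, and the changes were 0.78 ± 0.12 and 0.75 ± 0.12 (limma adjusted p = 4.7e-08 and 5.8e-07). Rab34, which acts on macropinosomes and positions lysosomes, was the single member lowered in both, from 12.8, 13.8 and 14.5 FPKM in M0 to 3.85, 6.28 and 5.70 FPKM in M1 and 4.85, 7.44 and 7.94 FPKM in M2. Its changes were -1.25 ± 0.23 and -0.95 ± 0.23 (limma adjusted p = 1e-06 and 0.00044), and neither state overlapped M0.

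Rab22a and Rab21, a Rab of early endosomes that also carries integrins, were the next most raised members in 24 h M1. Rab22a held 11.3, 11.6 and 12.1 FPKM in M0 and 26.1, 29.5 and 29.2 FPKM in M1 (1.21 ± 0.15, limma adjusted p = 3e-11), and Rab21 held 30.8, 27.7 and 27.3 and 64.2, 49.1 and 64.0 FPKM (1.01 ± 0.14, limma adjusted p = 9.9e-10). Both were separate from M0 in all libraries. Among the members lowered in 24 h M1, Rab31 went from 79.3, 90.1 and 91.7 to 42.7, 51.1 and 49.6 FPKM (-0.85 ± 0.15, limma adjusted p = 6.9e-07) and Rab11fip5 from 49.0, 55.9 and 55.8 to 24.5, 42.3 and 37.8 FPKM (-0.64 ± 0.27, limma adjusted p = 0.038). Of the smaller M1 calls, those of Rab1, Rab5b, Rab8b and Rab18 were lost without the libraries numbered 1 (adjusted p = 0.13, 0.0619, 0.0831 and 0.0838). The Rab11fip5 call was lost without replicate 1 of 24 h M1 (adjusted p = 0.252) and without replicates 2 or 3 of 24 h M0 (0.0857 and 0.0844), and that of Rab1 without replicate 3 of 24 h M0 (0.184) or replicates 1 or 3 of 24 h M1 (0.0926 and 0.0692).

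Rab3il1 took opposite directions in M1 and M2. At 24 h its libraries held 71.6, 97.3 and 105 FPKM in M0, 10.3, 37.6 and 28.9 FPKM in M1 and 178, 221 and 238 FPKM in M2, with no overlap between the 3 states. It fell in M1 (-1.95 ± 0.54, limma adjusted p = 0.0012), and M1 lay below M2 by -3.17 ± 0.54 (limma adjusted p = 2.1e-07). The M2 difference was 1.22 ± 0.54 with a limma adjusted p of 0.072, which became 0.00183 with the replicate number as a block and 3.45e-06 without the libraries numbered 1. At 4 h M2, at 178, 183 and 221 FPKM, it was called higher than at 0 h M0 (1.43 ± 0.54, limma adjusted p = 0.027). Rab4a in 24 h M1 likewise was not called in the plain fit and was called with the block (adjusted p = 0.00111).

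Rab19, Rab9 and Rab40c were also called in 24 h M2. Rab19 was raised, at 6.35, 6.12 and 6.42 FPKM against 3.55, 2.101 and 4.63 FPKM in M0 (0.76 ± 0.20, limma adjusted p = 0.0015). Rab9 was lowered to 11.3, 13.6 and 14.1 FPKM from 21.9, 22.4 and 25.3 FPKM (-0.79 ± 0.13, limma adjusted p = 4.7e-07), as was Rab40c (-0.51 ± 0.15, limma adjusted p = 0.0045). Without replicate 2 of 24 h M0 the calls of Rab19 and Rab40c were lost (adjusted p = 0.0598 and 0.213). At 4 h M2 Rab43 and Rab7l1 were at 8.71, 8.36 and 8.05 FPKM and 8.52, 9.35 and 11.6 FPKM, below all their 0 h libraries (-1.09 ± 0.18 and -0.999 ± 0.20, limma adjusted p = 1.7e-07 and 1.4e-05). Rab43 was thus below its 0 h level under IL-4 in the hours when it was above it under LPS + IFN-γ. The 6 h states differed by 4.39 ± 0.18 (limma adjusted p = 1.1e-42). No bulk M0 library was taken at 4 h or 6 h, so IL-4 and hours in culture cannot be told apart here. In single cells Rab43 had 3.70 UMI counts-per-million at 0 h M0, 2.66 at 6 h M0 and 2.96 at 6 h M2. Rab7l1 had 39.5, 24.2 and 17.7 in the same order.

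Genes that act on Rabs were read from lists of partners. Of 45 GEFs 35 were measured, and 13 rose and 6 fell in 24 h M1, where 35.4% of all genes were higher and 25.2% lower. Ccz1, a subunit of the exchange factor that loads Rab7, had a mean of 81.0 FPKM in M1 and 30 FPKM in M0 (1.40 ± 0.08, limma adjusted p = 1.5e-30), whereas Rin3, an exchange factor of the Rab5 family, had 4.91 and 19.0 FPKM (-1.75 ± 0.22, limma adjusted p = 2.7e-11). Rcbtb1 rose as well (1.32 ± 0.11, limma adjusted p = 9.5e-21). Of 33 GAPs 22 were measured, with 8 higher and 6 lower, and Tbc1d9 had a mean of 80.2 FPKM in M1 against 10.8 FPKM in M0 (2.78 ± 0.18, limma adjusted p = 5.7e-26). Usp6nl, a GAP for Rab5, was raised (0.87 ± 0.14, limma adjusted p = 1.3e-07) and Tbc1d17 lowered (-0.89 ± 0.16, limma adjusted p = 5.8e-07). Of 38 effectors 26 were measured, with 9 higher and 6 lower. Unc13d, a Rab27 effector of granule release, rose by 1.40 ± 0.18 (limma adjusted p = 9.9e-11), as did the phosphatase Inpp5b by 1.19 ± 0.17 (limma adjusted p = 2.9e-09), and Mical1, a cytoskeletal effector, changed by -1.33 ± 0.25 (limma adjusted p = 2e-06). Of the 7 measured genes of GDI and prenylation, 1 rose (Rabif, 0.53 ± 0.10, limma adjusted p = 9.7e-07) and 1 fell in M1, and in M2 Gdi2, a GDI carrier, was lower with a change of -0.54 ± 0.07 (limma adjusted p = 3.2e-10). In 24 h M2, where 18.5% of all genes were higher and 15.1% lower, the other lists had 1 higher and 7 lower GEFs, 2 higher and 7 lower GAPs, and 4 higher and 6 lower effectors.

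Under continued LPS + IFN-γ part of the rise was kept. Against M0 of the same age, 12 members were higher and 8 lower at 48 h M1 (57% of all genes called), and 11 were higher and 9 lower at 96 h M1 (52.4%). Of the 18 members raised at 24 h, 11 were still higher at 48 h and 10 at 96 h, and all 4 lowered members were still lower at both times. The matching share of all genes raised or lowered at 24 h was not computed, so these counts do not set the Rab genes apart. Against 24 h M1 itself, no member was higher and 17 were lower at 96 h M1 (38.4% of all genes called). Rab34 reached its lowest values there, with 2.53, 3.00 and 3.58 FPKM at 48 h M1 and 14.4 and 12.2 FPKM at 48 h M0 (-1.83 ± 0.25, limma adjusted p = 6.5e-10).

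Cells washed free of LPS + IFN-γ and cells kept in it both had more members lower than higher against 24 h M1, and 8 of the 39 differed between them at 48 h. Against 24 h M1, no member was called 1 h after the wash by limma (0.0963% of all genes). After 6 h, 2 were higher and 10 lower (30.9%), after 24 h 2 and 17 (44.4%), and after 72 h 4 and 20 (57.1%). In cells kept in LPS + IFN-γ, none was higher and 15 were lower at 48 h M1 than at 24 h M1 (27%). Set directly against 48 h M1, 5 members were higher and 3 lower at 48 h M1→M0 (23.8%). Of the 18 members raised in 24 h M1, 7 were higher than M0 of the same age at 48 h M1→M0 and 1 was at 96 h M1→M0, Rab28. Here too the matching share of all genes was not computed. At 96 h M1→M0 against 96 h M1, 8 members were higher and 8 lower, where 42.1% of all genes were called, and centring of library medians gave 10 and 6.

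The 8 members that came down in 96 h M1→M0 had all been called higher at some M1 time. Rab20 held 19.5, 39.4 and 34.3 FPKM in 96 h M1, 13.9, 14.7 and 16.1 FPKM in 96 h M1→M0 and 17.1, 17.0, 16.5 and 16.2 FPKM in 96 h M0, a fall of -0.96 ± 0.25 from M1 (limma adjusted p = 0.00094). All M1→M0 libraries were below all M1 libraries and below all M0 libraries. Rab32, Rab43, Rab9, Rab10, Rab12, Rab22a and Rab28 were the other 7, with changes between -0.92 (Rab32) and -0.33 (Rab28). Without replicate 2 of 96 h M1→M0 the calls of Rab10 and Rab12 were lost (adjusted p = 0.0654 and 0.151), as they were without replicate 3 of 96 h M1 for Rab10 (0.0584) and replicate 1 of 96 h M1 for Rab12 (0.0705). The call of Rab22a was lost without replicates 1 or 3 of 96 h M1→M0 (0.107 and 0.0709) or replicate 2 of 96 h M1 (0.147), and without all libraries numbered 1 (0.15). Rab3il1 came back up, from 2.62, 12.4 and 17.6 FPKM in 96 h M1 to 44.9, 67.1 and 61.2 FPKM, beside 69.2, 66.3, 84.5 and 86.3 FPKM in 96 h M0 (2.58 ± 0.54, limma adjusted p = 4.1e-05). Rab34 and Rab31 rose too, by 1.19 ± 0.23 and 0.94 ± 0.15 (limma adjusted p = 5.6e-06 and 1.6e-07). Rab4a was called higher with the replicate block (adjusted p = 7.08e-05) and not in the plain fit.

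Between 96 h M1→M0 and 96 h M0, 6 members still differed, 2 higher and 4 lower, where 17.9% of all genes were called; centred, 1 was higher and 4 lower. Rab9 was furthest in p, with 11.9, 12.1 and 13.4 FPKM against 19.6, 20.5, 18.8 and 19.4 FPKM (-0.61 ± 0.12, limma adjusted p = 6.2e-05). Rab11fip5 had the largest change, 24.8, 33.4 and 26.3 FPKM against 48.6, 48.6, 50.6 and 46.1 FPKM (-0.77 ± 0.26, limma adjusted p = 0.023). Neither overlapped, but the Rab11fip5 call was lost without replicates 1 or 3 of 96 h M1→M0 (adjusted p = 0.102 and 0.0908). The other lower members were Rab7 (-0.29) and Rab5b (-0.26), and the higher ones Rab3gap2 (0.39) and Rab28 (0.32). The call of Rab28 was lost without the libraries numbered 1 (adjusted p = 0.148), and without replicate 3 of 96 h M1→M0 the count was 2. The summed neutrophil and precursor markers were at 18.1 to 43.8 FPKM in 96 h M1→M0 and 98.6 to 144 FPKM in 96 h M0, and the fibroblast markers at 0.296 to 0.941 and 18.2 to 128 FPKM; their part in these differences was not tested. After IL-4 and 72 h of base medium, no member was called against 96 h M0 by limma, where 0.373% of all genes were called. Between 96 h M0 and 0 h M0, 7 members were called (4 higher and 3 lower, centred 2 and 3), beside 13.7% of all genes. The count was 2 without replicate 3 of 0 h M0 and 4 without replicate 1 or replicate 2 of 96 h M0. The neutrophil and precursor markers summed to 1060 to 2800 FPKM at 0 h M0, and 9 of the 10 were called lower at 96 h M0. The parts of age in culture and of cell mix were not tested apart.

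**Figure D3:**
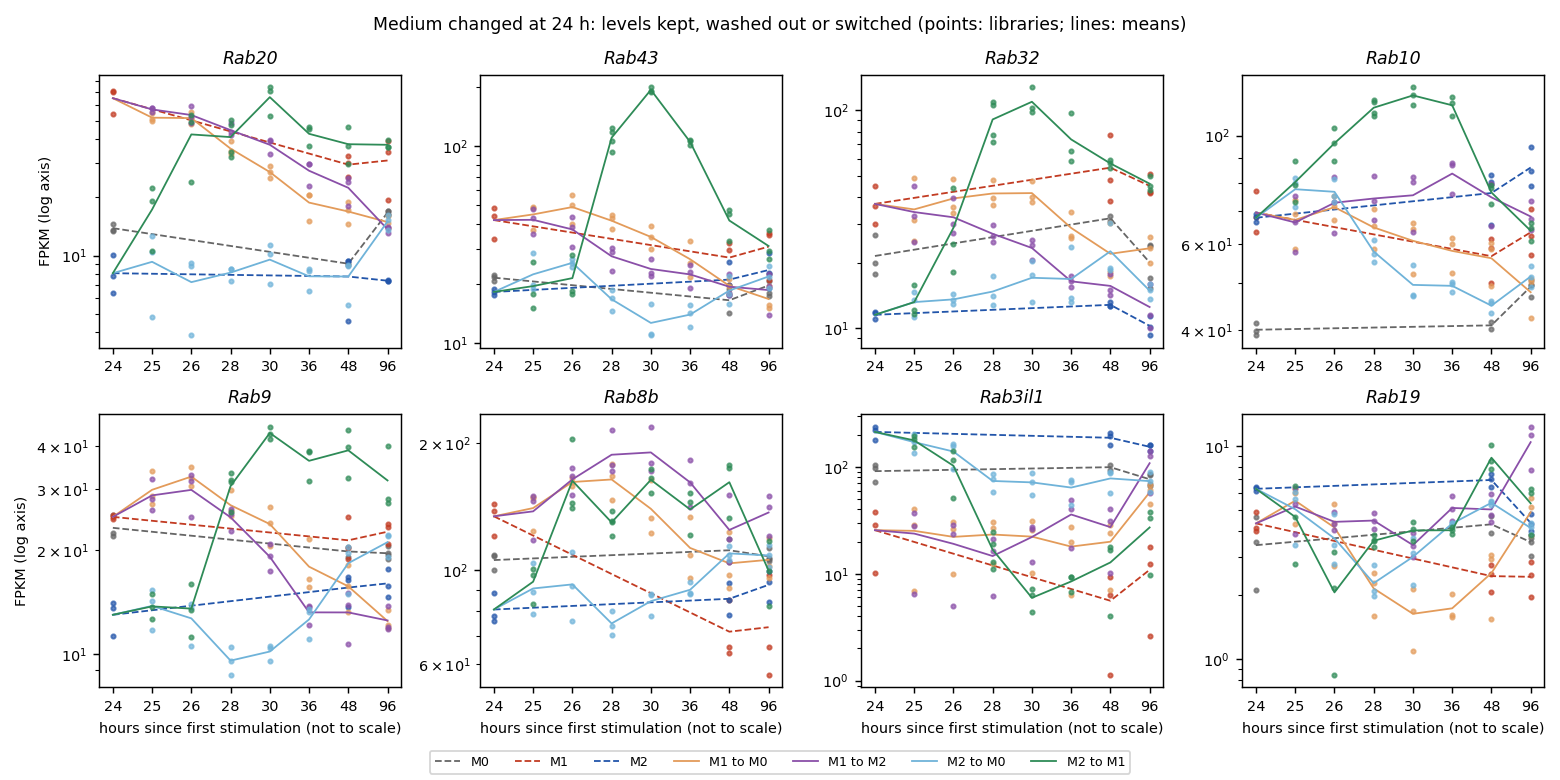
RNA level of 8 members from 24 to 96 h in M0, M1, M2, M1→M0, M1→M2, M2→M0 and M2→M1 cells, in FPKM on a log axis; points are libraries and lines join condition means. Rab43 held at least 189 FPKM in each library of 30 h M2→M1, and Rab20 in M1→M0 was back near M0 by 96 h.

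Set against 0 h M0, in M1 cells 21 members were higher and 4 lower at 12 h (64.4% of all genes called), 13 and 7 at 48 h (60.8%) and 12 and 9 at 96 h (55.1%). In M2 cells the counts were 7 and 8 at 4 h (40.3%), 5 and 5 at 12 h (38.3%), 5 and 6 at 48 h (40.1%) and 7 and 4 at 96 h (41.9%). After the wash of M1 cells they were 21 and 4 at 25 h M1→M0 (61.5%), 22 and 3 at 26 h (63.5%), 21 and 7 at 28 h (60.4%), 18 and 7 at 30 h (57.2%), 14 and 7 at 36 h (52.7%), 11 and 7 at 48 h (47.3%) and 5 and 3 at 96 h (22.3%). The M1→M2 cells had 22 higher and 4 lower at 25 h (61.5%), 24 and 3 at 26 h (63.7%), 21 and 4 at 28 h (63.4%), 15 and 7 at 48 h (55.7%) and 11 and 5 at 96 h (37.5%). The M2→M1 cells had 12 and 8 at 26 h (56.6%), 19 and 9 at 28 h (69.4%), 22 and 7 at 30 h (68.9%), 24 and 5 at 36 h (67.4%), 25 and 5 at 48 h (66%) and 15 and 7 at 96 h (53.8%). At 48 h M2→M0 4 were higher and 2 lower (19.2%), and at 48 h M0 2 and 0 (8.69%) by limma. All these comparisons share the 0 h M0 libraries.

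Cells switched from IL-4 to LPS + IFN-γ showed the rise of Rab43 again. Rab43 went from 18.7, 18.1 and 17.5 FPKM at 24 h M2 to 199.8, 189 and 191 FPKM at 30 h M2→M1, all libraries far above all M2 libraries (3.34 ± 0.18, limma adjusted p = 2.7e-33). At 48 h M2→M1, 17 members were higher than in 48 h M1 and none was lower (42.5% of all genes called); the former had had LPS + IFN-γ for 24 h and the latter for 48 h. At 96 h, 6 were higher and none lower (12%), namely Rab13, Rab19, Rab3d, Rab8b, Rab9 and Rab7. Rab13, a surface-delivery Rab, held 17.1, 22.7 and 20.3 FPKM against 6.38, 11.5 and 13.3 FPKM (0.93 ± 0.21, limma adjusted p = 0.001), and Rab19 held 3.83, 6.00 and 6.32 against 1.95, 2.48 and 2.86 FPKM (0.88 ± 0.20, limma adjusted p = 0.0011). In neither did the libraries overlap. The call of Rab3d was lost without the libraries numbered 1 (adjusted p = 0.153) or replicate 1 of 96 h M1 alone (0.0568), that of Rab9 without replicate 2 of 96 h M1 (0.072) or replicate 1 of 96 h M2→M1 (0.193), and that of Rab8b without replicates 1 or 2 of 96 h M1 (0.135 and 0.271) or replicates 2 or 3 of 96 h M2→M1 (0.252 and 0.065). In number, 2 calls were made without replicate 1 of 96 h M1, and none was made when these conditions were fitted alone. With the replicate block, Rab3il1 was called as well (adjusted p = 0.00191), at 9.70, 38.1 and 33.5 FPKM against 2.62, 12.4 and 17.6 FPKM.

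In the opposite switch, 5 members were higher and 2 lower at 96 h M1→M2 than at 96 h M2 (21.5% of all genes called), and with the replicate block 9 were higher and 3 lower. Rab19 had 7.68, 12.3 and 11.3 FPKM against 4.29, 4.78 and 4.01 FPKM (1.07 ± 0.20, limma adjusted p = 1.3e-05), its highest level in any condition. Rab20 had 13.9, 14.1 and 13.0 FPKM against 7.37, 7.39 and 7.45 FPKM (0.80 ± 0.25, limma adjusted p = 0.011) and Rab8b 149.7, 121 and 141 against 93.8, 83.9 and 99.6 FPKM (0.56 ± 0.15, limma adjusted p = 0.0022). These 3 members were separate in all libraries. Rab34 (0.73) and Rab3gap1 (0.21) were the other higher members, and Rab10 (-0.33) and Rab5b (-0.25) the lower ones. Without replicate 1 of 96 h M1→M2, or without replicate 1 of 96 h M2, 4 calls were made. The Rab34 call was lost without replicate 2 of 96 h M1→M2 (adjusted p = 0.169) or replicate 1 of 96 h M2 (0.173), and that of Rab10 without replicates 1 or 2 of 96 h M1→M2 (0.11 and 0.159) or replicates 2 or 3 of 96 h M2 (0.0843 and 0.209).

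Whether the 24 h response differed between primed and naive cells was tested as a difference of differences. The effect of 24 h of LPS + IFN-γ in IL-4-primed cells (48 h M2→M1 against 48 h M2→M0) less that in naive cells (24 h M1 against 24 h M0) was called for 1 member, where 7.33% of all genes were called. It was Rab9. In primed cells it held 32.4, 39.8 and 44.5 FPKM with LPS + IFN-γ and 14.9, 19.6 and 20.5 FPKM without, and in naive cells 25.4, 25.0 and 24.6 FPKM and 21.9, 22.4 and 25.3 FPKM. The naive groups overlapped and the primed groups did not. The difference between the effects was 0.94 ± 0.19 (95% interval 0.57 to 1.31, limma adjusted p = 0.00033). The primed cells were also 24 h older and had been washed, and no unprimed cells had cytokine from 24 h to 48 h, so priming, age and wash cannot be told apart.

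The matching test for IL-4 set M1-primed cells (48 h M1→M2 against 48 h M1→M0) against naive cells and called 2 members (6.32% of all genes). Rab20 held 18.1, 25.2 and 24.0 FPKM with IL-4 after M1 and 14.6, 17.2 and 18.9 FPKM without, whereas in naive cells IL-4 lowered it as described. The effects differed by 1.11 ± 0.35 (95% interval 0.41 to 1.80, limma adjusted p = 0.037). Rab8b held 119, 105 and 151 FPKM and 90.9, 97.5 and 123 FPKM, and its effects differed by 0.64 ± 0.21 (95% interval 0.23 to 1.06, limma adjusted p = 0.042). Within the primed cells the groups of each gene overlapped. The Rab8b call was lost without the libraries numbered 1 (adjusted p = 0.16). Neither member was called when replicate 1 or 2 of 24 h M0, replicate 1 or 2 of 24 h M2, replicate 2 of 48 h M1→M0 or replicate 3 of 48 h M1→M2 was left out, with adjusted p from 0.0559 to 0.114 for Rab20 and from 0.0801 to 0.189 for Rab8b. Rab20 was also lost without replicate 3 of 24 h M0 (0.0598), replicate 1 of 48 h M1→M0 (0.0869) or replicate 2 of 48 h M1→M2 (0.0802), and Rab8b without replicate 1 of 48 h M1→M0 (0.119) or of 48 h M1→M2 (0.0588). The Rab9 call above was kept in each of its leave-one-out fits.

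ATAC-seq counts at the transcription starts moved less than the RNA. Sites within 500 bp of a start were read for the members, 49 in all. ATAC-seq had no M0 library at 24 h or 96 h. In all changes against 0 h M0, LPS + IFN-γ thus cannot be told apart from time in culture. At 96 h M1→M0 the wash cannot be told apart either. In 24 h M1 against 0 h M0, 4 start sites were called more accessible and 2 less by edgeR's quasi-likelihood test, where 32.2% of 128287 sites were called. The raised ones were 2 sites at Rab5c (0.71 and 1.28 in log2, edgeR adjusted p = 0.00667 and 0.022), 1 at Rab43 (0.40, edgeR adjusted p = 0.0487) and 1 at Rab3gap2 (0.36, edgeR adjusted p = 0.0261), and the lowered ones lay at Rab3il1 (-0.59, edgeR adjusted p = 0.00694) and Rab4a (-1.04, edgeR adjusted p = 0.0184). The start sites of Rab32, Rab10, Rab12 and Rab22a, whose RNA rose at 4 h M1, were not called, with changes of -0.15, -0.08, 0.05 and 0.03. Their M1 RNA means were highest at 4 h or 6 h, when no ATAC-seq was done. The 6 calls were 2 under DESeq2 and 3 under a stricter count filter, 2 without replicate 3 of 0 h M0 or replicate 1 of 24 h M1, and 10 without replicate 2 of 24 h M1. In 96 h M1→M0 against 0 h M0, 8 start sites were called lower and none higher (19.6% of all sites), with changes from -0.31 to -0.58 at Rab8b, Rab40c, Rab10, Rab6a, Rab11a, Rab14, Rab1b and Rab11b, and DESeq2 called 4. Leaving out replicate 1 or 2 of 0 h M0 gave 5 and 4 calls, and leaving out each 96 h M1→M0 library gave 4, 3 and 4.

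Inside the genes the changes were larger. Shares over the start sites or the inner sites of other genes were not computed, so this contrast does not set the Rab genes apart. Of 170 sites within member genes and away from the starts, 51 gained and 10 lost accessibility in 24 h M1, beside 17.1% and 15.1% of all sites. This count was added after the start sites had been seen. Rab8b held 9 of the sites that gained, Rab31 7 and Rab5c 6, while Rab3il1 held 3 of the sites that lost, and sites of 1 gene are not independent of each other. The genes also differ in how many sites they hold, Rab31 with more than Rab5c, so these counts do not rank them. Library totals were 1730488 to 9354620 counts, and the smallest was 1 of the 24 h M1 libraries.

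**Figure D4:**
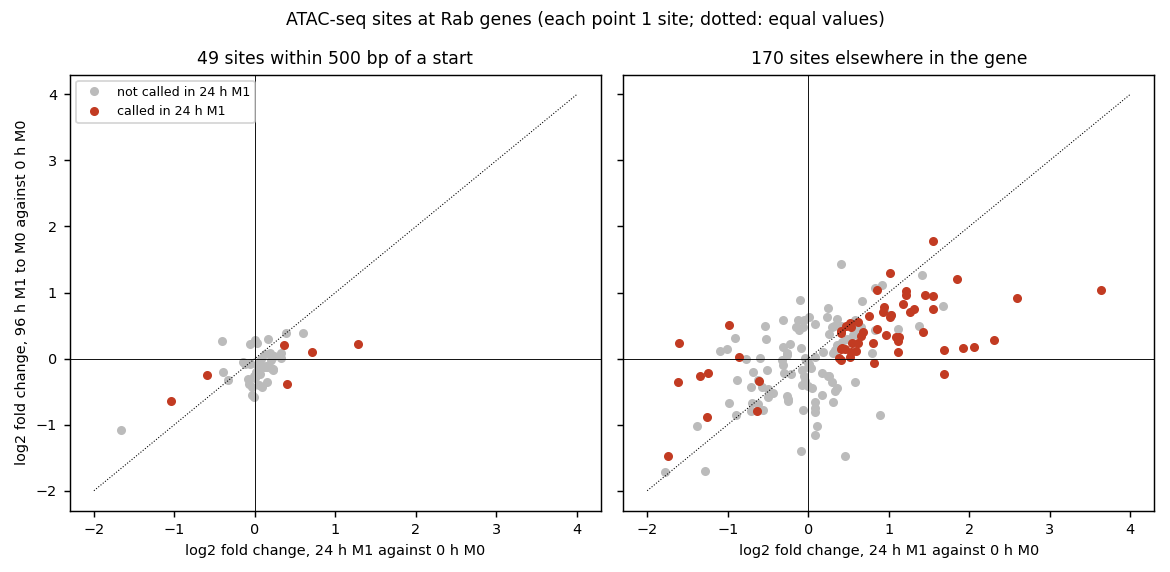
Change in accessibility (log2, edgeR) at 49 start sites and 170 sites inside member genes, at 24 h M1 (x axis) and at 96 h M1→M0 (y axis), both against 0 h M0; red points were called at 24 h M1. Start sites stay near 0 on the x axis, whereas several sites inside genes pass 1.

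The site in the Rab22a intron printed first had the largest gain shown. Its normalised counts were 2.3, 4.7 and 4.5 at 0 h M0, 38.5, 48.3 and 54.5 at 24 h M1 and 2.7, 12.7 and 8 at 96 h M1→M0. It rose by 3.64 (edgeR adjusted p = 2.93e-10) and then fell by 2.60 on the log2 scale (edgeR adjusted p = 2.49e-07). The whole site spans chr2:173680177-173680485. The Rab5c site, chr11:100737049-100737645, went from 27.8, 21 and 23.3 to 89.3, 106.2 and 70.6 and back to 27.1, 30.2 and 25.7 (1.92, edgeR adjusted p = 8.23e-12). In both, the 24 h M1 libraries were above all others. The washed Rab5c libraries were near the 0 h ones. At the Rab22a site the washed values 12.7 and 8 lay above every 0 h value, and the 0 h counts were low.

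Not every site returned as far. The Rab32 site, chr10:10550165-10550534, went from 8.7, 16.3 and 18.1 to 45.5, 57.9 and 35.3 and stood at 28.5, 27.8 and 39.9 after the wash. It was called higher than 0 h M0 both at 24 h M1 (1.84, edgeR adjusted p = 4.22e-07) and at 96 h M1→M0 (1.20, edgeR adjusted p = 0.00123). Over the 170 sites, 33 were higher and 8 lower at 96 h M1→M0 than at 0 h M0, beside 10.5% higher and 9.13% lower over all sites, and DESeq2 called 20. The Rab20 site, chr8:11465301-11465630, was at 21.4, 28 and 11.3, 57.8, 43.2 and 51.3 and 37.3, 21.4 and 40.8 in the same order (1.32, edgeR adjusted p = 0.000132 at 24 h M1). Its washed libraries overlapped the 0 h ones.

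Both printed sites that lost accessibility lie in genes whose RNA fell, which the way they were picked had fixed. In all, 10 sites inside member genes lost accessibility at 24 h M1. The Rab3il1 site, chr19:10021937-10022336, went from 51.6, 31.5 and 37.6 to 1.8, 18.3 and 9.6 (-1.74, edgeR adjusted p = 6.85e-05) and was still at 19.7, 16.7 and 7.1 after the wash (-1.47, edgeR adjusted p = 0.000135), when its RNA had come back. The Rab31 site, chr17:65768349-65768919, went from 75.3, 68.8 and 65.4 to 10.5, 30 and 19.3 and back to 76.7, 92.9 and 80.7 (-1.60 and then 1.84, edgeR adjusted p = 3.08e-08 and 5.84e-10). Another Rab31 site, chr17:65740185-65740789, gained 1.55 at 24 h M1 (edgeR adjusted p = 3.66e-11), so sites of 1 gene moved both ways.

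Counts of the motif letters describe these windows without naming a factor. AP-1 letters stood in 14 of the 51 member sites that gained accessibility (27.5%), in 17.6% of all 187 sites within member genes and in 15.6% of 149880 windows of the same length over all sites. KappaB letters stood in 15.7%, 12.3% and 14.2%, and GAS letters in 9.80%, 6.95% and 5.90%. Of the 250 bases before the start, 45 windows of 35 members were found in RefSeq's promoter table, and kappaB letters stood in 15.6% of them and in 23% of all 32851 windows. GAS letters stood in 6.67% and 7.02%.

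In single cells the members were measured in a separate experiment with 1 library per condition, so no test was possible. Values are CPM (UMI counts-per-million) of the summed cells, with an exact 95% Poisson interval that covers counting error only. The libraries held 2446 to 5985 cell barcodes, and pairs of libraries shared 6 to 25 barcode sequences. Rab20 was at 27.1 (23.1 to 31.6) at 6 h M0, 262 (252 to 273) at 6 h M1 and 28.03 (24.6 to 31.8) at 6 h M2. At 24 h it was at 30.9 (26.5 to 35.8), 200.1 (189.9 to 211) and 23.04 (19.8 to 26.7) in M0, M1 and M2. The M1 values of Rab20 lay above the others, as in the bulk RNA. Not every member did so at 6 h. Rab7 had bulk means of 312.1 FPKM at 0 h M0 and 412 FPKM at 6 h M1. In single cells it was at 287 (275.1 to 299.4) at 0 h M0. At 6 h it was at 288.9 (275.5 to 302.8) in M0 and 278.5 (267.6 to 289.8) in M1. Rab11b had bulk means of 26.2 and 32.4 FPKM. In single cells it was at 119 (111.4 to 127) at 0 h M0. At 6 h it was at 104.9 (96.9 to 113.4) in M0 and 75.9 (70.2 to 81.9) in M1. CPM values share 1 total per library. The bulk FPKM sums did not, with 414377 to 453416 at 0 h M0 and 647203 to 710082 at 6 h M1. The part of this difference of scale was not tested.

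Rab43 again was brief, with 2.66 (1.52 to 4.31) at 6 h M0, 53.3 (48.6 to 58.4) at 6 h M1 and 6.75 (4.97 to 8.94) at 24 h M1. Rab10 was at 125 (116 to 134) at 6 h M0, 482 (468 to 497) at 6 h M1 and 197 (188 to 207) at 6 h M2. Its 6 h order was M1, M2 and then M0. Rab3il1 had another order, with 2.17 (1.31 to 3.39) at 6 h M1, 45.8 (40.6 to 51.6) at 6 h M0 and 181 (172 to 190.1) at 6 h M2. At 24 h it was at 9.98 (7.79 to 12.6) in M1 and 163 (154 to 172) in M2. For Rab3il1 the 6 h M0 library, which the bulk series has no match for, thus lay between M1 and M2. Rab31 was at 96.6 (88.9 to 105) and 24.1 (20.9 to 27.6) at 6 h M0 and M1, and Rab34 at 28.5 (24.3 to 33.2) and 3.37 (2.16 to 5.02) at 24 h.

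**Figure D5:**
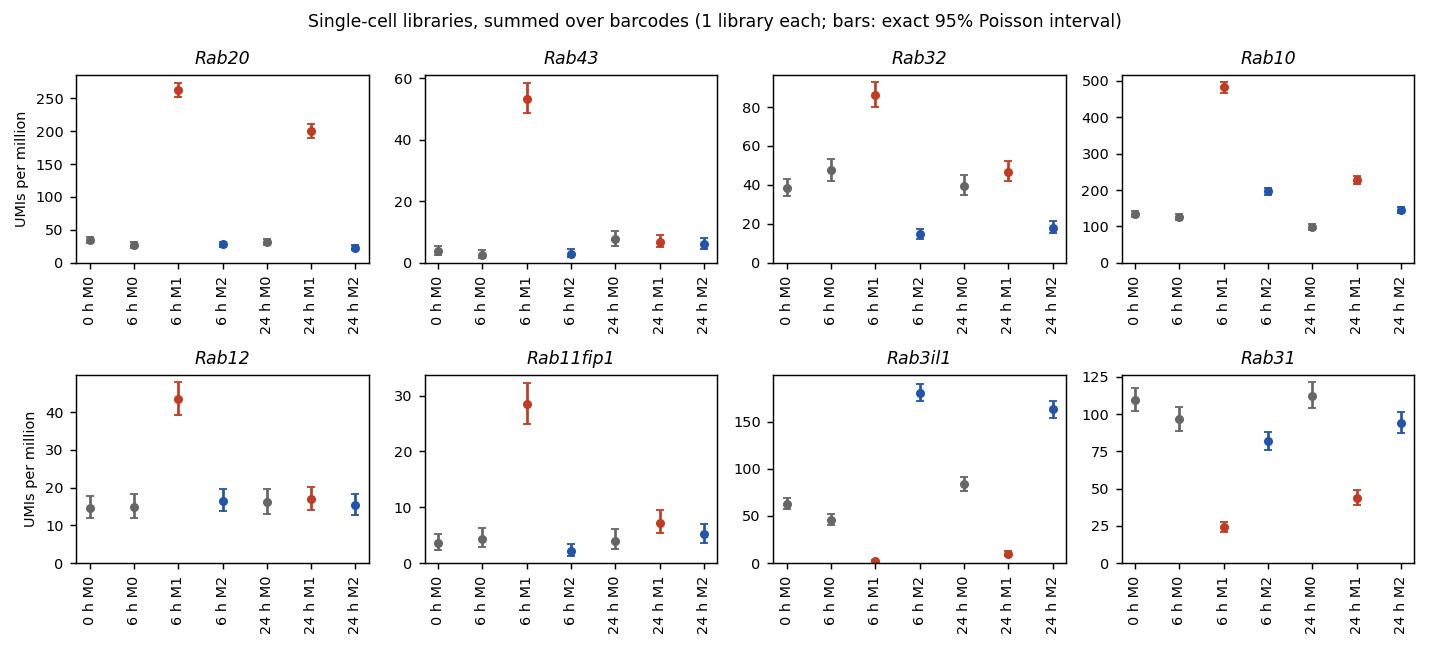
CPM (UMI counts-per-million) of 8 members in the 7 single-cell libraries, with exact 95% Poisson intervals. Rab20, Rab43, Rab32, Rab10, Rab12 and Rab11fip1 were highest in 6 h M1, and Rab3il1 was highest in 6 h M2 and 24 h M2.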

How the data were processed

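BMDMs of 48 conditions were profiled by bulk RNA-seq, 3 by ATAC-seq and 7 by single-cell RNA-seq. Per the labels and methods, the authors aligned bulk reads (unstranded TruSeq libraries) to mm10 with TopHat2 2.0.14 and made FPKM with Cuffnorm 2.2.2. The deposited bulk values are log10(FPKM + 1), and were turned back into FPKM. Every gene in the table reaches at least 10.1 FPKM in some library. ATAC-seq files hold counts per site, deposited by the authors after MACS2 2.1.0 and bedtools 2.28.0, and single-cell files hold UMI counts from Cell Ranger.

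Here log2(FPKM + 1) of all 145 libraries was fitted with limma 3.58.1 (1 mean per condition, mean-variance trend, Benjamini-Hochberg over 8307 genes), and ATAC-seq counts with edgeR 4.0.16 (TMM, quasi-likelihood, sites over 10 normalised counts in a library). Single-cell UMIs were summed per library, with no doublet removal. Scripts were tested on simulated data. The members, partner lists, markers and tests were chosen with earlier results of these data known. Most members named with the value of every library followed a rule. They were called in any comparison with a log2 change of 1 or more and a mean of 10 FPKM or more in 1 group. Rab7, Rab11a and Rab13 were added after their values were seen, and Rab3gap2 was given outside this rule. Of the partners, the 3 with the largest called change at 24 h were named per list, except 1 gene that is not reported here, and of the start sites all that were called. Labels call the replicates biological but name no animals, so p-values cover only how far these samples differ, which may be technical. Same-numbered libraries deviated together in each pair (r = 0.134 to 0.688) for the comparisons of 4 h and 24 h. The same held for those of 96 h M1→M0 or M2→M1 with M1 and M1→M2 with M2. There blocked values are given for some calls that the block changed, and for M1→M2 with M2 only blocked counts. Alternatives were other pseudocounts, low-level filters, centring, blocking, DESeq2 1.42.0 and leaving out libraries. R 4.3.3 and Python 3.11.15 were used.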

Additional observations from a re-analysis of the deposited data

Results flagged for a closer look

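The 24 h response of 3 members differed between primed and naive cells by a test of the difference itself, in which priming cannot be told apart from 24 h more of culture and a wash. For Rab9 the effect of LPS + IFN-γ in IL-4-primed cells exceeded that in naive cells by 0.94 on the log2 scale, and this call was kept in every alternative run. For Rab20 and Rab8b the effect of IL-4 in M1-primed cells exceeded that in naive cells by 1.11 and 0.64, and these calls were lost when several single libraries were left out.

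In the groups of 4 libraries, single values lay far from the rest for 2 of 78 gene and group combinations, and chance alone gives about 1 in 20. Rab7 was at 323.2 FPKM in replicate 1 of 28 h M2→M1, beside 299.5, 302.7 and 299.3 FPKM. Rab5b was at 41.7 FPKM in replicate 3 of 96 h M0, beside 47.8, 47.1 and 46.9 FPKM.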

How the results depend on the processing

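The counts of members called at 4 h and 24 h M1 moved by less than 1.5 times under every alternative run, and no named change reversed. Over 91 named changes, the 1292 refits kept direction and call in 1161 and lost the call in 131. Centring library medians left 1 call for the IL-4 difference of effects. The replicate block gave 12 calls for 96 h M1→M2 against M2, and 4 calls for each of the differences of effects, whose libraries do not pair by number. In the other comparisons the block moved no count by more than 1.5 times. In ATAC-seq the numbers did not pair the libraries (r = -0.047 to 0.033). Leaving out all libraries numbered 1 gave 4 calls for the LPS + IFN-γ difference of effects. Fitting the compared conditions alone gave 4 calls for 96 h M0 against 0 h M0, 0 for 96 h M2→M1 against M1 (6 in the full fit), 3 for 96 h M1→M2 against M2 and 1 for the IL-4 difference of effects. At the starts, sites within 2000 bp gave 13 calls at 24 h M1, the stricter count filter 3 and DESeq2 2, and DESeq2 gave 4 for 96 h M1→M0. The cause of these shifts was not tested.

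With 1 library left out, calls ranged from 25 to 28 at 4 h M1, 21 to 25 at 24 h M1 against 0 h M0 and 18 to 21 against 24 h M0, 5 to 8 at 24 h M2 and 2 to 6 at 96 h M0. They ranged from 11 to 16 for 96 h M1→M0 against M1, 2 to 6 against M0, 2 to 7 for M2→M1, 4 to 7 for M1→M2, 0 to 0 for M2→M0, 1 to 1 and 0 to 3 for the differences of effects, and 666 to 807 over all conditions against 0 h M0 (802 in the full fit). At the starts they ranged from 2 to 10 at 24 h M1 and 3 to 6 at 96 h M1→M0. Over all conditions, centring gave 404 higher and 314 lower calls, against 559 and 243. Unknown bulk depth leaves the precision of low members such as Rab4a, Rab19 and Rab11fip1 to replicate spread alone, and the smallest 24 h M1 ATAC-seq library held 1730488 counts.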

Other observations

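The single-cell libraries also held UMIs of genes named Rab followed by a digit that are not analysed in bulk here. Of these Rab7b, a Rab of the endosome to Golgi route, was the most abundant at 0 h M0, at 226 (216 to 238) CPM (UMI counts-per-million, with the exact 95% Poisson interval for counting error). It was at 164 (154 to 174) at 6 h M0, 70.3 (64.9 to 76.1) at 6 h M1 and 47.2 (42.7 to 52.0) at 6 h M2. At 24 h it was at 136 (126 to 146) in M0, 220.1 (209 to 231) in M1 and 80.4 (74.2 to 87.0) in M2, so the order of M0 and M1 at 6 h was turned at 24 h. With 1 library per condition these values have no test.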
